A study of Rattus norvegicus and Sus scrofa and Bos taurus with 188 samples.

Results

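HENMT1 encodes the methyltransferase that adds a methyl group to the 3' end of piRNAs. It was selected on its FPKM value, known beforehand to be among the highest in the transcriptome of pig morulae, and it was set against 9 partner genes of the piRNA pathway and against its neighbours in the order of the table. HENMT1 is 1 of 15877 gene names in the table, and 8 of the 9 partners have a row. PIWIL3 is not analysed here.

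The samples are 4 Smart-seq2 RNA libraries of Sus scrofa morulae whose titles carry the mark PG, which the labels of related pig samples use for embryos that began development by parthenogenetic activation, without sperm. The labels name no breed, allele, drug or culture time, and they do not say how many embryos went into a library. The authors merged the 4 libraries into 1 column of FPKM, a read level scaled to transcript length and to library size. No value below therefore has a replicate spread or a test, the depth is unknown, and the other groups of the series are not used here. In such pooled RNA, fewer cells of a type and less RNA per cell cannot be told apart.

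PIWI-interacting RNAs are small RNAs that guide the PIWI proteins, a germline branch of the Argonaute family, to the transcripts of transposons. Long precursors are cut at the mitochondrial surface, loaded into PIWI proteins, trimmed from the 3' end and finally methylated there by HENMT1, which protects them from decay. Tudor-domain proteins and RNA helicases hold these steps together in granules called nuage. In mammals the pathway is best known from the testis, and it also acts in the oocytes of many species.

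HENMT1 stood at 2541 FPKM, the fourth highest value among all genes. It has 1 transcript row in the table (ENSSSCT00000007498.3), so this level rests on that row alone. The row held 0.833% of the FPKM total of the table. As HENMT1 was picked for this level, the rank is a description and carries no test. Genes at or above its level made up 0.0252% of all genes.

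HENMT1 stood between genes of ribosomal, ubiquitin, respiratory and cytoskeletal proteins. Above it stood TMSB10, which encodes an actin-sequestering thymosin, at 3719 FPKM, and the ribosomal protein genes RPS18 and RPS28 at 2888 and 2832 FPKM, so RPS28 was 11.5% higher than HENMT1. Directly below stood the ubiquitin gene UBB, which differed from HENMT1 by 6.50 FPKM. COX7A2, a subunit of respiratory complex IV, RPS13, RPL10 and the translation initiation factor gene EIF1 followed, and HENMT1 exceeded them by 1.20-fold, 1.20-fold, 1.22-fold and 1.29-fold. With 1 value per gene, the order within this cluster cannot be set against any spread. Of the 36 genes at 1000 FPKM or more, 18 had symbols of ribosomal proteins and 5 of respiratory chain or ATP synthase subunits. HENMT1 was among the other 13, and it was the one gene of the listed piRNA pathway among the 36.

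The PIWI genes were expressed at levels far below this. PIWIL2 stood at 13.0 FPKM, the highest of the 8 partners with a row. HENMT1 exceeded it by 196-fold. PIWIL1 stood at 2.70 FPKM, so PIWIL2 was 4.80-fold higher than PIWIL1. PIWIL4, the nuclear member of the family that directs transposon methylation in the male germline, was at 0.107 FPKM. A gene is called expressed here at 1 FPKM or more, so PIWIL2 and PIWIL1 were expressed by this rule and PIWIL4 was not.

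Among the partners, TDRKH and PLD6, which act on piRNA precursors at the mitochondrion, came next to PIWIL2. TDRKH, the Tudor protein that anchors PIWI proteins and the trimming enzyme to the outer membrane, stood at 8.77 FPKM in its higher row and at 3.25 FPKM in its other row, or 12.0 FPKM summed. PLD6, the mitochondrial nuclease that makes the 5' ends of piRNAs, stood at 7.23 FPKM. PNLDC1, the exonuclease that trims the 3' end just before HENMT1 acts, stood at 3.84 FPKM. HENMT1 was 289.9-fold above TDRKH, 351-fold above PLD6 and 661-fold above PNLDC1, the enzyme of the step directly before its own. MOV10L1, the helicase that feeds precursors to this machinery, was at 0.225 FPKM and therefore below the 1 FPKM line.

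The other nuage partners were TDRD1, MAEL and TDRD9. TDRD1, a Tudor protein that binds methylated PIWI proteins, stood at 2.13 FPKM and MAEL, a nuage protein needed for transposon silencing, at 2.08 FPKM, and these values differed by 1.02-fold. TDRD9, a Tudor-domain helicase of the same granules, was listed at 0. Its row lies in a run of 474 rows at the end of the table that are all 0 and that hold the mitochondrially encoded genes, so nothing is said here about its expression.

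In all, 6 of the 8 partners (75.0%) stood at 1 FPKM or more, beside 48.8% of all genes. At 5 FPKM or more stood 3 of the 8, beside 28.4% of all genes. Their median was 2.41 FPKM, beside 0.916 FPKM over all genes and 6.89 FPKM over the genes at 1 FPKM or more. The 3 highest partners, PIWIL2, TDRKH and PLD6, held ranks 2728, 3420 and 3788 among all genes, and PIWIL1, TDRD1 and MAEL held ranks 5787, 6305 and 6347. On the log2(FPKM + 1) scale HENMT1 lay 9.55 above the median partner. The smallest such difference was 7.51, to PIWIL2. Summed, the 8 partners came to 36.1 FPKM, which HENMT1 exceeded by 70.4-fold.

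**Figure D1:**
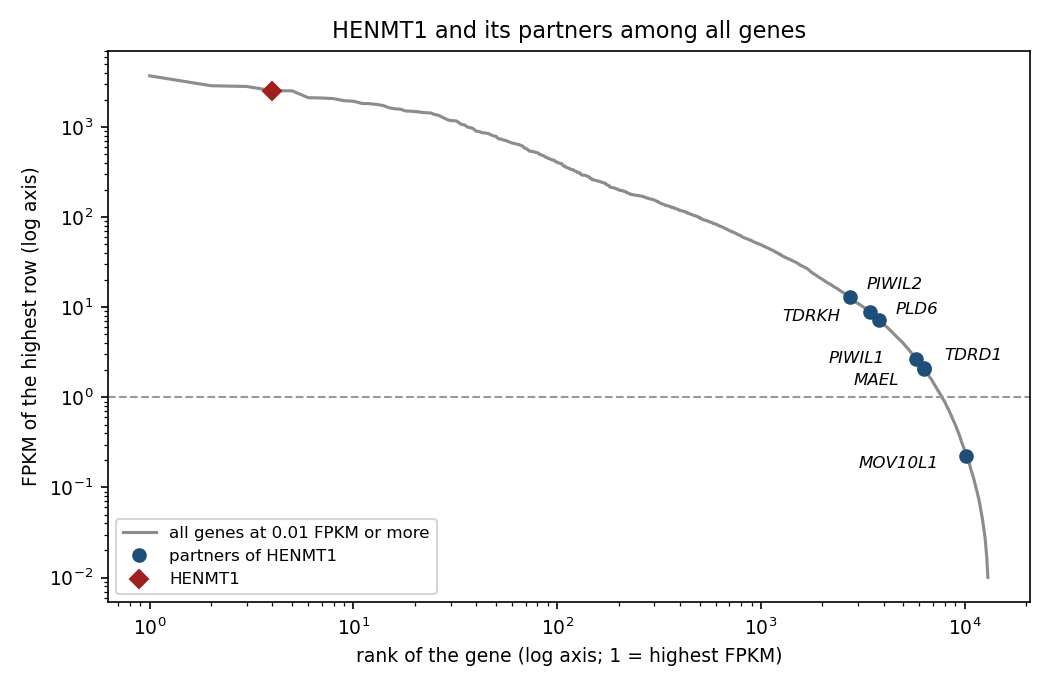
FPKM of the highest transcript row of each gene (vertical, log axis) against the rank of the gene (horizontal, log axis); the grey line is all genes at 0.01 FPKM or more, the diamond HENMT1 and the circles the 7 partners above 0. HENMT1 sits at rank 4, while the highest partner, PIWIL2, sits at rank 2728 and MOV10L1 lies below the dashed line at 1 FPKM.

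A wider list of 26 genes of piRNA production, nuage and piRNA-guided silencing was described in the same way. Of its 22 genes with a row, 12 (54.5%) stood at 1 FPKM or more, beside the 48.8% of all genes, so the share is near that background. The median was 2.09 FPKM. The 4 highest were FKBP6 at 39.2 FPKM, a co-chaperone that acts with HSP90 in the pathway, WDR77 at 36.0 FPKM and PRMT5 at 35.5 FPKM, and GTSF1 at 34.9 FPKM. WDR77 and PRMT5 form the complex that methylates arginines of PIWI proteins, which Tudor proteins then bind, and they also serve the spliceosome. GTSF1 is a small zinc finger protein that assists PIWI proteins in cutting their targets. HENMT1 was 64.9-fold above FKBP6, the highest of them.

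The remaining members are named after their values were seen, apart from MYBL1, the lowest at 1 FPKM or more, and EXD1, TDRD6 and TDRD7, the highest below it. ASZ1, a protein of the mitochondrial surface, stood at 19.8 FPKM and STK31, a Tudor-domain kinase, at 15.1 FPKM. The nuage helicase DDX4, a classical germ cell marker, stood at 7.96 FPKM. The poly(A) ribonuclease gene PARN was at 5.28 FPKM, and the Tudor genes TDRD5 and RNF17 were at 3.58 and 2.19 FPKM. MYBL1, the transcription factor that drives piRNA genes in the testis, stood at 1.99 FPKM.

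Below 1 FPKM stood EXD1 at 0.982 FPKM and the Tudor genes TDRD6 at 0.940 FPKM, TDRD7 at 0.593 FPKM and TDRD15 at 0.00715 FPKM. MORC1, TEX15 and SPOCD1, known from transposon silencing in male germ cells, were also below 1 FPKM, as were 51.2% of all genes. MORC1 stood at 0.286 FPKM, TEX15 at 0.0792 FPKM and SPOCD1 at 0.0539 FPKM, beside the 0.107 FPKM of PIWIL4. NANOS2 and NANOS3, RNA-binding proteins of germ cell development, were listed at 0 outside the run of zeros at the end of the table. GPAT2, TDRD12, BTBD18 and DNMT3L are not analysed here.

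Over both lists together, 18 of 30 genes other than HENMT1 (60.0%) stood at 1 FPKM or more, beside 48.8% of all genes, 9 lay between 0 and 1 FPKM and 3 were listed at 0. Their highest rows summed to 244.6 FPKM. HENMT1 by itself held 91.2% of the FPKM of the pathway so counted.

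**Figure D2:**
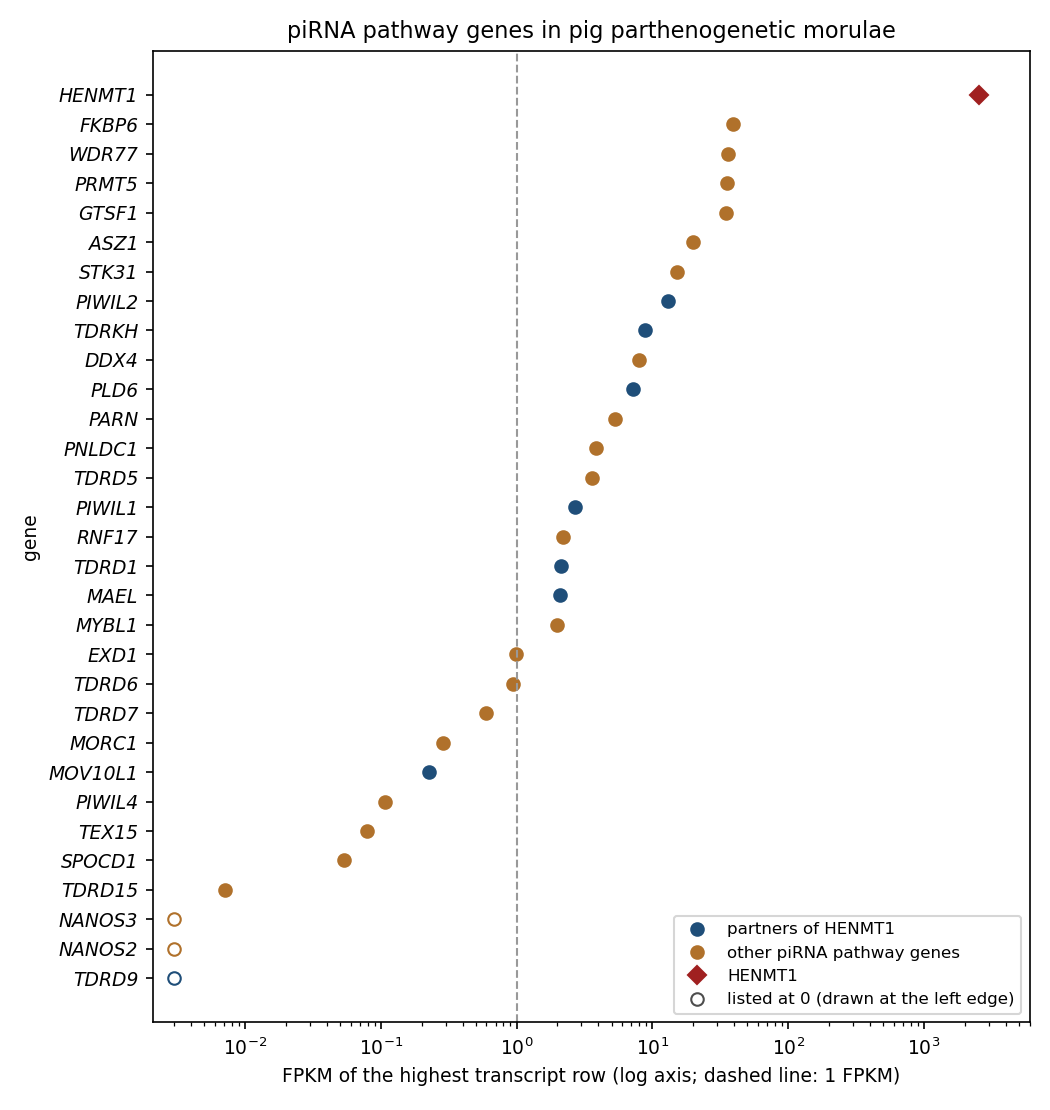
FPKM of the highest transcript row (horizontal, log axis) of HENMT1, its 8 partners with a row and 22 other genes of the piRNA pathway, ordered by level; open circles at the left edge are genes listed at 0 and the dashed line marks 1 FPKM. All genes but HENMT1 lie at or below the 39.2 FPKM of FKBP6, and HENMT1 stands at 2541 FPKM.

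The other small RNA pathways were compared because they also use proteins of the Argonaute family, of which the PIWI proteins are a branch. Of 16 genes of the miRNA and siRNA pathways with a row, 11 (68.8%) stood at 1 FPKM or more, beside 48.8% of all genes, and the median was 1.70 FPKM. With the line at 5 FPKM, 3 of the 16 passed by highest rows, a lower share than the 28.4% of all genes. At the top stood TENT2, a cytoplasmic poly(A) polymerase, at 47.5 FPKM, XPO5, the exporter of miRNA precursors, at 17.9 FPKM, the slicing Argonaute AGO2 at 9.94 FPKM and TUT7, a uridylating enzyme, at 4.94 FPKM. By highest rows, PIWIL2 was 1.30-fold above AGO2. This order turns around with summed rows, as the 4 rows of AGO2 came to 25.5 FPKM and the 1 row of PIWIL2 stood at 13.0 FPKM. TNRC6B, an Argonaute-binding silencing factor, was the lowest at 1 FPKM or more, at 1.28 FPKM. DICER1, which cuts miRNA precursors, stood at 0.579 FPKM in its highest row and at 1.85 FPKM with its 6 rows summed. TNRC6C and PRKRA followed at 0.286 and 0.261 FPKM, and TNRC6A was listed at 0 in the run of zeros. AGO1 and AGO4 are not analysed here.

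HENMT1 was then set beside enzymes of the same reaction, the methylation of the ribose 2'-hydroxyl, on other RNAs. Of 11 such genes, 8 (72.7%) stood at 1 FPKM or more, beside 48.8% of all genes, and their median was 4.38 FPKM. The tRNA methyltransferase FTSJ1 was highest at 65.0 FPKM, followed by fibrillarin (FBL), which modifies ribosomal RNA, at 31.4 FPKM, and by the mitochondrial rRNA enzymes MRM3 and MRM2 at 20.5 and 6.76 FPKM. CMTR1, which methylates the mRNA cap, was the lowest at 1 FPKM or more, at 2.14 FPKM. MRM1 and TRMT44 stood at 0.559 and 0.0866 FPKM, and FBLL1, a relative of fibrillarin, was listed at 0. HENMT1 was 39.1-fold above FTSJ1.

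RNA methyltransferases of other reactions had the highest median of the 6 lists, with 19 of 20 (95.0%) at 1 FPKM or more, beside 48.8% of all genes, and a median of 11.1 FPKM. EMG1, an enzyme of ribosome assembly, stood at 171 FPKM, the cap methyltransferase RNMT at 154 FPKM, WTAP, a subunit of the complex that writes N6-methyladenosine, at 51.4 FPKM and the rRNA enzyme NSUN5 at 24.8 FPKM. PCIF1, at 1.27 FPKM, was the lowest at 1 FPKM or more. TRMT61A was listed at 0 in the run of zeros and METTL5 is not analysed here. HENMT1 was 14.9-fold above the highest row of EMG1, whose 2 rows summed to 285 FPKM.

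Transposons are also silenced without piRNAs, by the KAP1 (TRIM28) and HUSH complexes and the heterochromatin enzymes they recruit. Of 13 genes of this list with a row, 10 (76.9%) stood at 1 FPKM or more, beside 48.8% of all genes, with a median of 4.81 FPKM. The HUSH subunits PPHLN1 and MPHOSPH8 stood at 36.6 and 25.4 FPKM, the chromatin remodeller HELLS at 16.5 FPKM and ATF7IP, a partner of SETDB1, at 14.6 FPKM. SUV39H1, a histone H3 lysine 9 methyltransferase, was the lowest at 1 FPKM or more, at 1.30 FPKM. UHRF1 and EHMT2 stood at 0.896 and 0.563 FPKM, and EHMT1 was listed at 0 in the run of zeros. The third HUSH subunit, TASOR, appears under its older symbol FAM208A at 3.33 FPKM, and FAM208B (TASOR2) also stood at 3.33 FPKM. Both were matched after values were seen, and with them 12 of 15 stood at 1 FPKM or more. CBX1 and CBX3 are not analysed here.

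**Figure D3:**
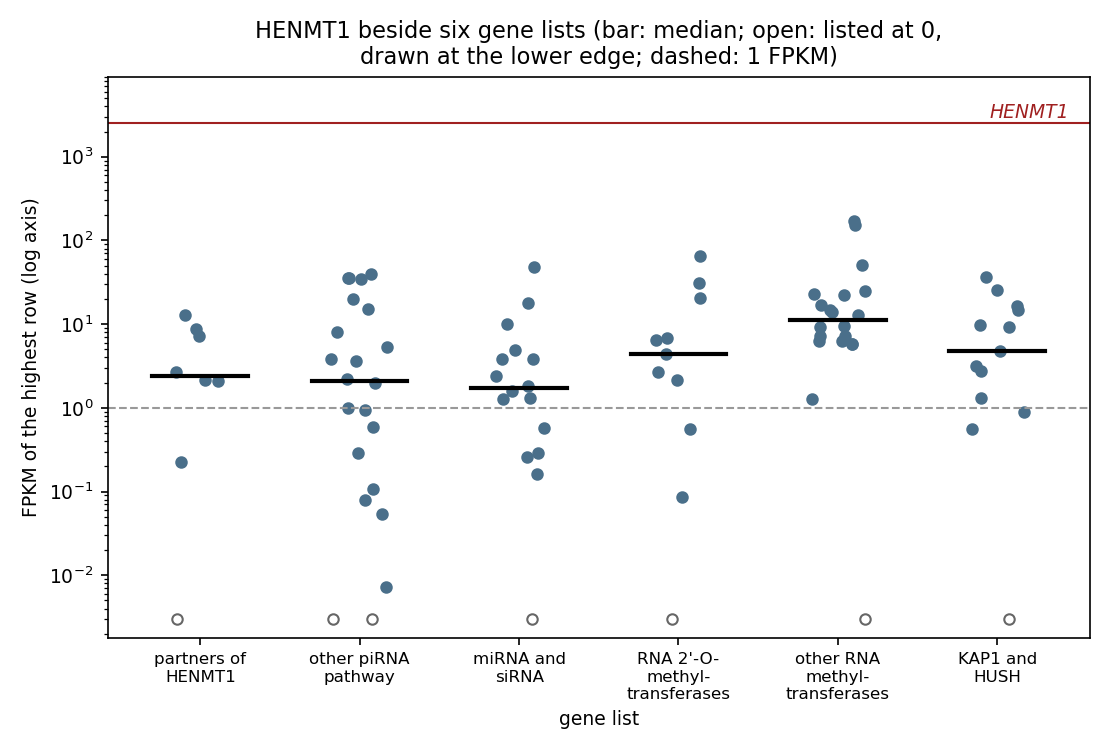
FPKM of the highest row (vertical, log axis) of each gene in 6 lists, with the median as a bar, genes listed at 0 as open circles at the lower edge, a dashed line at 1 FPKM and HENMT1 as a red line. The medians lie between 1.70 FPKM for the miRNA and siRNA genes and 11.1 FPKM for the other RNA methyltransferases, and the highest gene of these lists, EMG1 at 171 FPKM, lies below the HENMT1 line.

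The rows next to HENMT1 in the table were compared with it because the table runs along the genome as far as gene order shows. By symbol, 10 of the 20 genes nearest to HENMT1 in the table lie within 10 protein-coding genes of Henmt1 in the RefSeq annotation of the rat assembly GRCr8, all 10 on the same side as in the pig table. No pig genome was used here, so neither the position nor the exon structure of pig HENMT1 is given. The rat genes Fndc7 and Prpf38b, which lie between Stxbp3 and Henmt1, and Slc25a54, which follows Eeig2 (FAM102B in the pig table), are not analysed here under those symbols.

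No row of the 10 genes on each side of HENMT1 came within 50-fold of its level. The 5 rows before it belong to STXBP3, a regulator of vesicle fusion, whose highest row stood at 26.2 FPKM, with 47.1 FPKM over all 5 rows. The row directly before HENMT1 was at 2.42 FPKM and the row directly after, of FAM102B, at 2.34 FPKM. Further before it stood GPSM2, which orients the mitotic spindle, at 2.13 FPKM, CLCC1, a protein of the endoplasmic reticulum, at 5.32 FPKM, WDR47 at 8.59 FPKM and TAF13, a subunit of the general transcription factor TFIID, at 50.1 FPKM. After it stood SLC25A24, a mitochondrial carrier, at 0.435 FPKM, the netrin gene NTNG1 at 0.174 FPKM, the arginine methyltransferase gene PRMT6 at 2.25 FPKM and RNPC3, a protein of the minor spliceosome, at 7.77 FPKM.

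Among the 10 genes on each side, 14 of 20 stood at 1 FPKM or more, 9 before HENMT1 and 5 after it, beside 48.8% of all genes. The highest was TAF13, which HENMT1 exceeded by 50.7-fold. The median of the 20 was 3.02 FPKM. On the log2(FPKM + 1) scale HENMT1 lay 9.33 above the median of these neighbours. The same difference was taken for every gene of the table, and genes at or above the value of HENMT1 made up 0.145%, or 23 genes with HENMT1 itself as the last. EIF1 led them with 10.86 and UBB followed with 10.82. The level for which HENMT1 was picked enters this difference, so its place here is also a description and carries no test. Of the partners, PIWIL2 lay 3.31 above the median of its own neighbours, PLD6 2.74, TDRKH 2.47, TDRD1 1.32, PIWIL1 0.88 and MAEL 0.01, while MOV10L1 lay at -0.24.

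**Figure D4:**
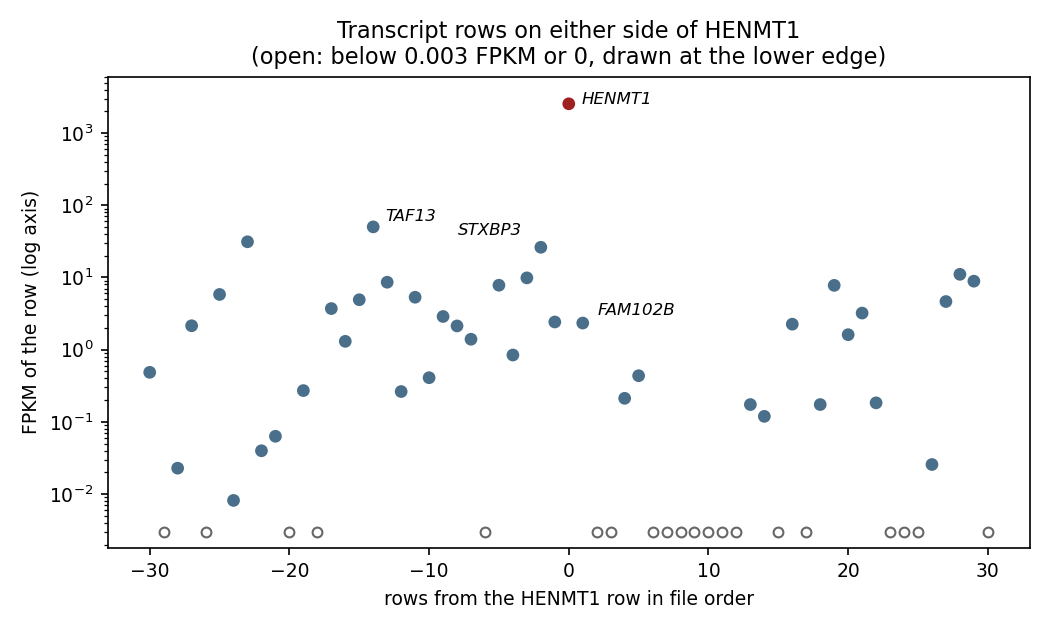
FPKM of single transcript rows (vertical, log axis) against the distance in rows from HENMT1 in the order of the table (horizontal), for 30 rows on each side; open circles at the lower edge are rows below 0.003 FPKM or at 0. The HENMT1 row stands at 2541 FPKM and the highest row around it, of TAF13, at 50.1 FPKM.

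The value of HENMT1 depends on the transcript length and the read assignment used by the authors, and neither was tested. Smart-seq2 does not mark the strand of a read, so reads from HENMT1 and from any gene that overlaps it cannot be told apart here.

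Marker lists, chosen with earlier results of these data known, were used to describe the labelled embryo and other cells. No other stage was compared, so these lists cannot test the stage. All 10 genes listed as expressed in the compacting morula stood between 30.9 and 194 FPKM, and 7 of 8 measured oocyte genes stood at 1 FPKM or more, beside 48.8% of all genes, led by H1FOO at 90.3 FPKM. Against the same 48.8%, none of 10 measured genes of cumulus or granulosa cells reached 1 FPKM in its highest row. The highest of them was CYP19A1 at 0.835 FPKM, which came to 1.06 FPKM with its 8 rows summed. INHA, FSHR, TNFAIP6 and FOXL2 were listed at 0. Of 9 measured fibroblast and blood genes, CD68 at 1.32 FPKM was the one at 1 FPKM or more, again beside 48.8% of all genes.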

How the data were processed

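RNA of pig morulae was measured in 4 libraries made with Smart-seq2, per the labels' protocols. Per the file headers, the deposited table holds the authors' FPKM values, with 37571 transcript rows and 1 column, in which the libraries were merged. In the submitters' processing notes stand TopHat2 2.1.1 and Cufflinks 2.2.1, with other tools for all data types, and the build susScr11. The sources used here do not say which of these tools made this table, with what annotation, or how libraries were merged. In all, 4534 rows lay above 0 and under 1e-06 FPKM, so whole reads could not be recovered.

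With Python 3.11.15, numpy 2.4.6 and pandas 2.3.3, a gene's value was taken as its highest row and a gene counted as expressed at 1 FPKM or more. Differences were taken on log2(FPKM + 1), and neighbours were the 10 genes on each side in file order. Ranks, neighbour differences and the run of zeros were tested on simulated data. HENMT1, its partners and all lists were chosen with earlier results of these data known. Genes named were HENMT1 and the partners, up to 5 genes on each side by level and in file order, and, per list, the 4 highest, the lowest at 1 FPKM or more, the 3 highest below it and those listed at 0. No other value columns were left out. No pig sequence was used here, and none is printed. The alternatives were thresholds of 0.5 and 5 FPKM, summed rows, scaling to TPM, a pseudocount of 0.1, other windows, partners left out and the run of zeros left out.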

Additional observations from a re-analysis of the deposited data

How the results depend on the processing

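The counts of genes at 1 FPKM or more stayed within 1.5 times of the reported ones for the wider piRNA list and the other RNA methyltransferases under every alternative tried, and for the other 4 lists under all but the threshold of 5 FPKM. There, 3 of 8 partners, 3 of 16 miRNA and siRNA genes, 5 of 11 ribose methyltransferases and 6 of 13 KAP1 and HUSH genes passed, beside 28.4% of all genes. By highest rows, the miRNA and siRNA list thus lay above the share of all genes at 1 FPKM and below it at 5 FPKM. Summed over rows, TUT7 and TARBP2 (named after values were seen) also passed 5 FPKM, at 7.56 and 7.35 FPKM. Summed rows were not counted at that threshold, so the lower share is shown for highest rows alone. Genes of the run of zeros count as below 1 FPKM in the shares given so far. With that run left out, 6 of 7 partners and 11 of 15 miRNA and siRNA genes stood at 1 FPKM or more. So did 19 of 19 other RNA methyltransferases and 10 of 12 KAP1 and HUSH genes, beside 49.5% of all genes so counted. Scaled to TPM, HENMT1 came to 8334. With rows summed, HENMT1 ranked 5, below TMSB10, RPS18, RPS28 and HSPE1, whose 2 rows sum to 2622 FPKM. The difference between HENMT1 and the median partner was 9.99 with a pseudocount of 0.1, 9.88 on the TPM scale and 9.43 without TDRD9, and between 9.43 and 9.67 with each partner left out in turn. The difference from the neighbours was 9.70 with a pseudocount of 0.1, 9.11 with summed rows, 9.61 on the TPM scale, 9.11 with 5 genes on each side and 9.90 with 50. Ranking without each gene's highest row could not be done, as HENMT1 has 1 row. No library could be left out, and no paired analysis was possible because the 4 libraries share 1 column. Without read counts, no detection limit can be given.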

Other observations

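The list of testis germ cell genes lay mostly below 1 FPKM, and the exceptions were its measured meiotic genes. Of 11 measured genes, 3 (27.3%) stood at 1 FPKM or more, beside 48.8% of all genes: SYCP3, a component of the synaptonemal complex, at 495 FPKM, SPO11, which makes meiotic DNA breaks, at 12.9 FPKM, and SYCP1, also of the synaptonemal complex, at 1.63 FPKM. The sperm genes PRM1, PRM2, ACR, ODF1, CRISP2 and SPATA16 were listed at 0, TNP1 was at 0.160 FPKM and ACRV1 at 0.758 FPKM. SYCP3 ranked 83 among all genes, and HENMT1 was 5.13-fold above it.

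The 13 genes at 1000 FPKM or more whose symbols are neither of ribosomal proteins nor of respiratory chain or ATP synthase subunits include MYO5A beside HENMT1. MYO5A, a myosin motor known for the transport of pigment granules, stood at 1444 FPKM (it was picked out with its level known), 8.52 above the median of its neighbours in file order on the log2(FPKM + 1) scale. Its symbol has 7 rows, where HENMT1 has 1. Genes with 1 row made up 38.9% of the 36 genes at 1000 FPKM or more, beside 44.5% of all genes.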
